A study of Mus musculus with 24 samples.

Results

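The left ventricles of Per2-/- mice after 30 min of ischemia without reperfusion (I30) were compared with the left ventricles of control Per2-/- mice. The array titles call the controls untreated, whereas the authors describe them as sham operated, and they are called sham here. The comparison used 3 I30 arrays and 3 sham arrays, 6 of the 24 arrays of the series, and took in all 18820 genes that have a probe set paired with 1 symbol. Where a gene had several such probe sets, the brightest on average over all 24 arrays stood for it. Values are log2 intensities, so that a log2 difference of 1 between I30 and sham is a doubling. The question was which cardiac transcripts differ at the end of a short coronary occlusion when Per2 is missing.

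All animals were adult male mice of the strain labelled BL6C57. The Per2-/- animals carry the mutation in every tissue and throughout life, so a missing gene product in the heart muscle cannot be told apart from one in the rest of the body. Every mouse, sham animals included, was anesthetized and catheterized, and the heart was flushed with ice cold saline before harvest. Ischemia was produced by closing the left coronary artery, and the experiments were all run at the same clock time. The same series holds wildtype I30 and sham groups, and Per2-/- and wildtype groups after 4 cycles of brief ischemia and reperfusion (IP0) or after 30 min of ischemia and 60 min of reperfusion (I30R60), each of 3 arrays. Per2-/- IP0, I30R60 and I30 were all set against the same 3 Per2-/- sham arrays, whereas wildtype I30 has its own sham arrays. Since whole ventricular tissue was measured, fewer cells of a type and less RNA per cell cannot be told apart.

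Per2 belongs to the inhibitory arm of the circadian clock, in which the PER and CRY proteins silence the activators CLOCK and BMAL1 that drive their own genes. In the heart the clock is known to tune fuel use, and lack of oxygen forces heart muscle from burning fatty acids to glycolysis. A coronary occlusion first switches on immediate early genes, whose transcription needs no new protein, and reperfusion is followed by a wave of cytokines and adhesion molecules.

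Per2 itself read 5.69, 5.65 and 5.63 in the sham hearts and 5.30, 4.94 and 5.04 in the I30 hearts of Per2-/- mice. Every I30 array lay below every sham array, with a log2 difference of -0.56 (SE 0.27, limma unadjusted p = 0.0496, adjusted p = 0.699). In wildtype hearts the values were 5.33, 5.94 and 6.10 for sham, which spanned the Per2-/- sham values, and 6.44, 6.31 and 5.89 for I30, which lay above them. The sources used here do not give which piece of Per2 is deleted or where the probes lie, so the probe set checks neither the genotype nor the labels.

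The ventricular markers were present at high level in all 6 hearts, with Ttn, the giant sarcomere spring, between 11.85 and 11.93 and Tnni3, cardiac troponin I, between 13.14 and 13.28. The sham array of replicate 3 stood apart. Myl7, the atrial myosin light chain, read 11.21 there and between 2.85 and 3.35 in the other 5 arrays, and the summed level of 13 atrial markers ranged from 11.07 to 14.28 in sham and from 10.97 to 11.17 in I30 on the log2 scale. In that array 42 genes lay more than 1 log2 unit above both other sham arrays and 43 lay more than 1 below. Each other array of the comparison had 4 to 13 genes above and 0 to 22 below in its own group. The larger differences between I30 and sham that rest on sham replicate 3 are therefore given with and without it. Values for I30R60 and IP0 are given only with it. Myl7 was also high in 3 arrays outside this comparison, of which 2 are wildtype sham arrays (8.24 and 5.22). The interquartile range of the log2 values was also narrower in I30, 3.85 to 3.98 against 4.01 to 4.04 in sham, and dim probe sets read slightly higher and bright ones slightly lower on the I30 arrays.

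No gene passed an adjusted p under 0.05 in limma (0% of the genes tested), and the smallest adjusted p was 0.383. The methods' t-test with the Benjamini-Hochberg adjustment also called 0 genes. At an unadjusted p under 0.05 there were 1343 genes, 7.14% of those tested, of which 574 (3.05%) were higher and 769 (4.09%) lower in I30. Every I30 array lay above every sham array for 1013 genes (5.38%) and below for 1480 (7.86%). Without I30 replicate 2 only 423 genes were lower at that unadjusted p. All differences below are thus described by their values, and counts of list members at an unadjusted p are to be read against the 3.05% and 4.09% of all genes.

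The precision bounds, gene by gene, what differences in measured log2 values the 3 hearts a group could have hidden. For dim genes, which have no stated detection limit, such bounds need not hold for the transcripts themselves. The median SE of a log2 difference was 0.14. For 18528 genes (98.4%) the 95% confidence interval lay within a 2-fold difference in either direction, and for 15593 (82.9%) it lay within 1.5-fold. The median difference over all genes was -0.01 and the differences had an SD of 0.18, against 0.25 in wildtype hearts. Differences of 2-fold or more were found for 2 genes upward and 12 downward, and 2 and 6 of these had an unadjusted p under 0.05.

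Among the genes with non-overlapping groups and an unadjusted p under 0.05, and leaving out predicted and olfactory genes, the 10 largest upward differences were, in order, those of Alas2, Pate11, Gadd45g, Ifi214, Rbis, Gadd45b, Atf3, Klra6, Tmem178b and Cd79b, and they ran from 1.21 down to 0.67. Alas2 codes for the erythroid enzyme that starts heme synthesis. It read 4.67, 5.25 and 5.62 in sham and 7.23, 6.0 and 5.92 in I30, a log2 difference of 1.21 (SE 0.39, adjusted p = 0.593). The I30 heart of replicate 1 was the highest, and without it the difference dropped to 0.78. Pate11 read 4.08, 3.31 and 4.64 in sham and 5.55, 5.12 and 4.65 in I30, with a log2 difference of 1.10 (SE 0.30, adjusted p = 0.515), and its groups nearly touched. The interferon-inducible gene Ifi214 and Rbis, a factor of ribosome assembly, both differed by 0.76, Klra6, a lectin receptor gene of natural killer cells, by 0.70 and the membrane protein gene Tmem178b by 0.67. Cd79b, a signalling subunit of the B-cell receptor, read 4.10, 4.44 and 4.70 in sham and 5.26, 5.12 and 4.86 in I30, a log2 difference of 0.67 (SE 0.18, adjusted p = 0.505). The smallest unadjusted p of a higher gene belonged to Prss43, a serine protease gene read at 3.01 to 3.08 in sham and 3.41 to 3.52 in I30, dim in both groups, with a log2 difference of 0.41 (unadjusted p = 0.000101). It was followed by Slc26a5, which codes for the hair cell motor protein prestin, at 0.46 and the secretoglobin gene Scgb2b27 at 0.44, dim as well.

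Under the same limits, 6 of the 10 largest downward differences were those of small RNA genes, namely Mir27b, Mir24-1, Mir30e, Scarna13, Mir126a and Mir27a. Myl7 and Nppa fell outside these limits, since their groups overlapped. Their differences were -2.70 and -1.23, or -0.03 and -0.18 without sham replicate 3. Scarna13, a guide RNA of the Cajal body, read 8.36, 8.71 and 7.31 in sham and 6.87, 6.72 and 6.80 in I30, a log2 difference of -1.32 (SE 0.47, adjusted p = 0.611). Zfp975, a zinc finger gene, read 5.63, 4.29 and 4.81 in sham and 3.93, 3.62 and 3.34 in I30, a log2 difference of -1.27. Fibin, a secreted protein gene, read 5.19, 5.10 and 5.58 in sham and 4.63, 3.89 and 4.50 in I30, a log2 difference of -0.95 (SE 0.20, unadjusted p = 0.000138, adjusted p = 0.383). In wildtype hearts Fibin differed by 0.10, and the test of the difference between genotypes gave an adjusted p of 0.391. Dnal4, a dynein light chain gene, had tight groups of 7.16, 7.27 and 7.25 in sham and 6.70, 6.79 and 6.67 in I30, while its wildtype difference was 0.03. Lrrn4 and Sbk2 also stood among the largest at -1.0 and -0.88, but both were highest in sham replicate 3 and came to -0.52 and -0.31 without it.

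**Figure D1:**
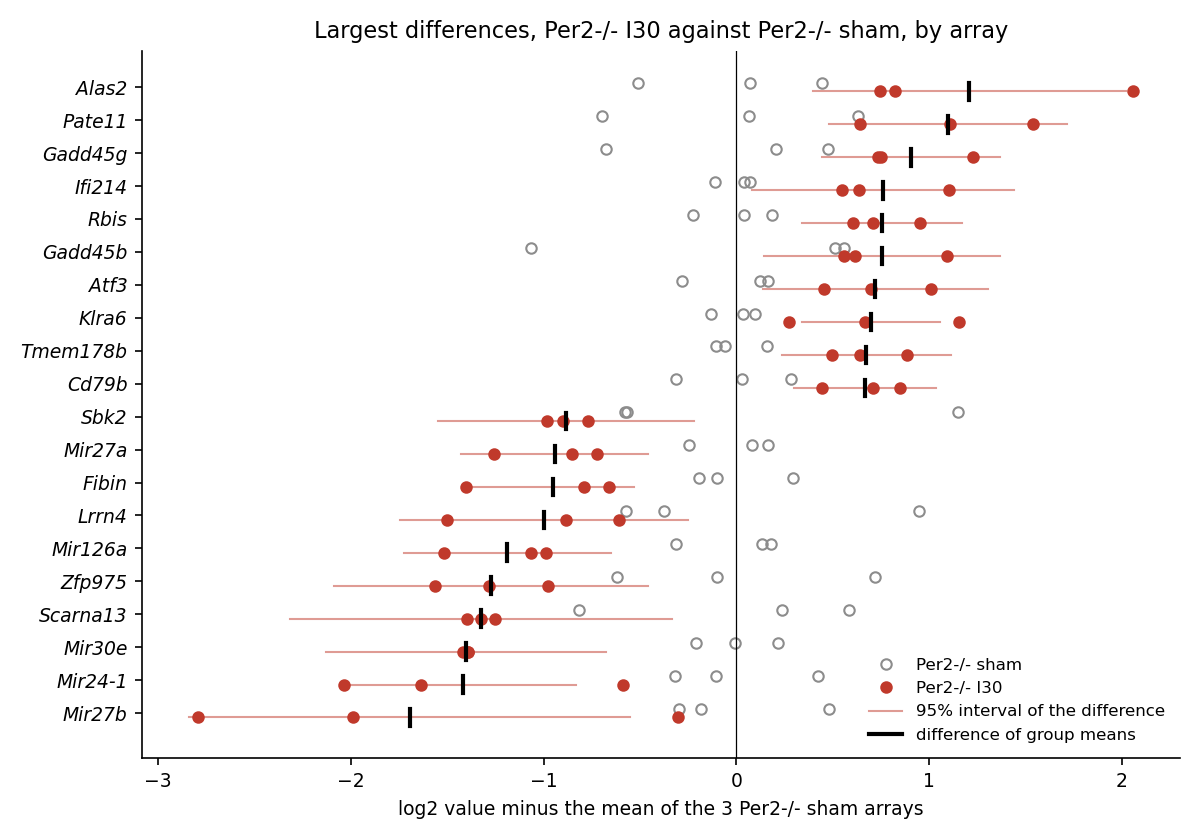
Log2 value minus the mean of the 3 Per2-/- sham arrays (horizontal axis) for the 10 genes with the largest differences in each direction; open points are sham arrays, filled points I30 arrays, black ticks the difference of the group means and thin lines its 95% interval from limma. For Mir30e, Mir126a and Fibin all I30 points lie well to the left of the sham points, and none of the genes shown passed the adjusted test.

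Of these 10 genes 5 were microRNA genes. MicroRNA genes give short RNAs that pair with messenger RNAs through the seed, bases 2 to 8, and lower their stability or translation. The probe sets are named for the gene, and whether they read the precursor or the mature strand is not given in the sources used here. Mature strands of the leading members are shown because several share a seed although they come from different loci. They were taken from RefSeq, build GRCm38.p6, and are written 5′ to 3′ with the seed in capitals. Of the 306 measured genes with a microRNA symbol, which include the host genes Mir100hg and Mir17hg, 264 had an entry. Seeds are counted only over genes whose entry holds that mature strand.
mmu-miR-24-3p (Mir24-1, chr13:63301251-63301272, + strand; Mir24-2, chr8:84208875-84208896, + strand): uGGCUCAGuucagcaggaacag
mmu-miR-27b-3p (Mir27b, chr13:63300760-63300780, + strand): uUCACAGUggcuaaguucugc
mmu-miR-27a-3p (Mir27a, chr8:84208727-84208747, + strand): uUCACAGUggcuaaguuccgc
mmu-miR-23a-3p (Mir23a, chr8:84208563-84208583, + strand): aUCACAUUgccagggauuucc
mmu-miR-30e-5p (Mir30e, chr4:120772660-120772681, - strand): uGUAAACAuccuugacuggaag
mmu-miR-30a-5p (Mir30a, chr1:23272274-23272295, + strand): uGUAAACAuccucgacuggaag
mmu-miR-126a-3p (Mir126a, chr2:26591402-26591423, + strand): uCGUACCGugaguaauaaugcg
mmu-miR-15a-5p (Mir15a, chr14:61632075-61632096, - strand): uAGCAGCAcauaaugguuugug
mmu-miR-16-5p (Mir16-1, chr14:61631936-61631957, - strand): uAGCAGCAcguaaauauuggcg
mmu-let-7f-5p (Mirlet7f-1, chr13:48537889-48537910, - strand): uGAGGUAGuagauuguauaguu

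The cluster on chromosome 13 holds Mir23b, Mir27b and Mir24-1. Mir24-1 had the smallest unadjusted p of all genes, 6.63e-05. It read 5.25, 4.71 and 4.50 in sham and 3.19, 2.78 and 4.23 in I30, a log2 difference of -1.42 (SE 0.28, adjusted p = 0.383). Mir27b read 6.04, 5.38 and 5.27 in sham and 3.58, 2.77 and 5.26 in I30, a log2 difference of -1.69 (SE 0.55, adjusted p = 0.593). Mir23b read 7.44, 6.62 and 6.67 in sham and 5.71, 5.32 and 6.94 in I30, a log2 difference of -0.92 (SE 0.37). Among the I30 arrays all 3 genes were highest in replicate 3, where Mir23b lay within the sham range and Mir27b just below it, and lowest in replicate 2. Without I30 replicate 3 Mir24-1 differed by -1.84 and passed the adjusted test (adjusted p = 0.00477), whereas Mir23b came to -0.58 without I30 replicate 2. In wildtype hearts Mir24-1 fell by 1.92 on the log2 scale (adjusted p = 0.0033), Mir27b by 2.09 (adjusted p = 0.049) and Mir23b by 1.55 (adjusted p = 0.0328).

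The related cluster on chromosome 8 gave smaller differences of the same sign. Mir27a read 6.04, 5.95 and 5.63 in sham and 5.02, 4.62 and 5.15 in I30, a log2 difference of -0.94 (SE 0.23, adjusted p = 0.409), and the groups were well separated. Mir23a differed by -0.76 and its groups did not overlap, while Mir24-2, whose mature strand above is that of Mir24-1, differed by -0.61 with overlapping groups. The 2 genes of seed UCACAGU thus had a median of -1.32 and the 2 of seed GGCUCAG a median of -1.02.

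Mir30e, of a family abundant in heart muscle, had the most even I30 values, 3.74, 3.77 and 3.77, against 5.38, 5.15 and 4.95 in sham, and a log2 difference of -1.40 (SE 0.35, adjusted p = 0.410). Fitted on the 12 sham and I30 arrays of both genotypes alone, Mir30e passed the adjusted test (adjusted p = 0.00496), the only gene to do so. Mir30a read 5.36, 5.23 and 4.99 in sham and 4.2, 4.70 and 4.71 in I30, a log2 difference of -0.65, and Mir30c-2 differed by -0.47. All 5 measured genes with a RefSeq strand of seed GUAAACA lay below 0, with a median of -0.47. Mir30b and Mir30d had no entry and differed by -0.54 and 0.13. Of all 306 microRNA genes, whose median level was 2.78, 148 lay below 0. Mir126a, made in endothelial cells from an intron of Egfl7, read 4.79, 4.84 and 4.35 in sham and 3.67, 3.15 and 3.60 in I30, a log2 difference of -1.19 (SE 0.26, unadjusted p = 0.00017, adjusted p = 0.383). In wildtype hearts Mir30e fell by 1.60 (adjusted p = 0.0239) and Mir126a by 1.47 (adjusted p = 0.00987) on the log2 scale.

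Mir15a and Mir16-1 lie next to each other on chromosome 14 and share the seed AGCAGCA. Mir15a read 6.97, 7.07 and 7.48 in sham and 6.56, 5.91 and 6.73 in I30, a log2 difference of -0.77 (SE 0.18, adjusted p = 0.409), and Mir16-1 differed by -0.56. Of the 7 measured genes with a RefSeq strand of that seed 6 lay below 0, with a median of -0.25. A RefSeq strand with the let-7 seed GAGGUAG was listed for 11 measured genes, of which 10 lay below 0 at a median of -0.16. Mirlet7f-1 had the clearest separation with 3.07, 2.94 and 3.03 in sham and 2.42, 2.68 and 2.47 in I30. Mir143 and Mir145a, the smooth muscle pair, differed by -0.86 and -0.74. The muscle microRNA Mir208a, encoded in an intron of a myosin heavy chain gene, had overlapping groups and a log2 difference of -0.57.

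Of the list of heart muscle microRNA genes 37 of 43 were measured, of which 15 were lower and 1 higher at an unadjusted p under 0.05. Every I30 array lay below every sham array for 13 of the 37 (35.1%) and above for 2 (5.41%), against 7.86% and 5.38% of all genes. The median was -0.23, against -0.01 over all genes, and it ranged from -0.26 to -0.21 when each of the 6 arrays was left out in turn. In wildtype hearts the same list had a median of -0.03, with 5 genes that fell and 1 that rose at an adjusted p under 0.05. Over all genes 1.18% fell and 1.2% rose in wildtype at that threshold. Over all 306 microRNA genes 23 were lower and 4 higher with a median of 0.00. Without I30 replicate 1 these counts were 16 and 14. The median level of the 306 was 2.78, within the lowest tercile of all genes by level (1.27 to 3.39), where the median difference was 0.08. Since dim genes have no stated detection limit, the median of 0.00 cannot show whether the class as a whole was level. Of the lower microRNA genes, 8 lie within 6 measured host genes, none of which was lower at an unadjusted p under 0.05. The host differences ran from -0.17 for Aopep, which holds Mir23b, Mir27b and Mir24-1, to 0.13, with Egfl7 at -0.11 and Nfyc, host of Mir30e, at -0.16.

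**Figure D2:**
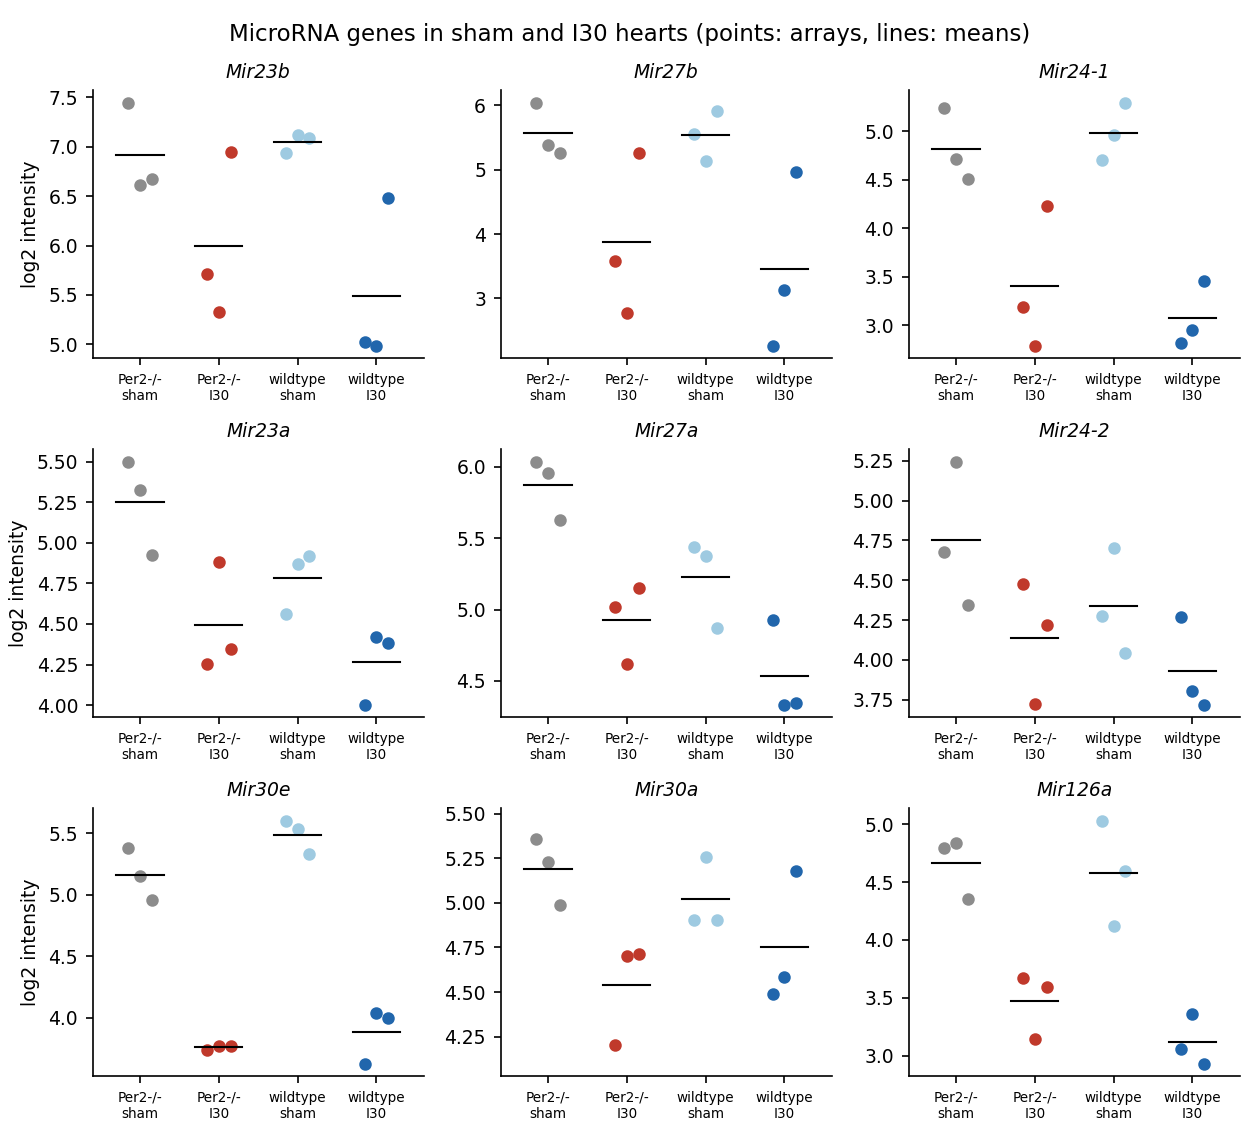
Log2 intensity of microRNA genes by array in sham and I30 hearts of both genotypes (points, 3 arrays a group; lines, group means; each panel has its own axis). In Per2-/- hearts the I30 points of Mir24-1, Mir30e, Mir126a and Mir27a lie below the sham points, and I30 replicate 3 brings Mir27b to 5.26, next to the lowest sham value of 5.27.

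Other small RNA genes showed a like direction. The list of small nucleolar and Cajal body RNA genes, which guide chemical modification of ribosomal and spliceosomal RNA, held 59 genes, of which 9 were lower and 1 higher, with a median of -0.09 against -0.24 in wildtype. Snord33 read 7.01, 7.20 and 7.28 in sham and 6.58, 6.51 and 6.64 in I30, a log2 difference of -0.59 (SE 0.12, adjusted p = 0.383), and it fell by 0.50 in wildtype (adjusted p = 0.0319). Snord49a read 5.65, 5.68 and 5.92 in sham and 4.91, 5.06 and 5.32 in I30, a log2 difference of -0.65. Without sham replicate 3 the list had 7 lower and 5 higher genes. Among 313 numbered zinc finger genes, many of which code for transcriptional repressors, 25 were lower and 5 higher at a median of -0.09, equal to the median of -0.09 in wildtype. Zfp57, which keeps imprinted methylation, read 5.43, 5.29 and 5.34 in sham and 4.84, 4.87 and 4.95 in I30.

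Immediate early genes differed little as a group. Of 41 measured, 3 were higher and 1 lower at an unadjusted p under 0.05, and the median difference was 0.07. Gadd45g, a sensor of stress and DNA damage, read 7.48, 7.21 and 6.33 in sham and 7.76, 8.24 and 7.75 in I30, a log2 difference of 0.91 (SE 0.22, adjusted p = 0.409). Its relative Gadd45b read 7.72, 7.77 and 6.15 in sham and 7.77, 8.31 and 7.82 in I30, a log2 difference of 0.76. Atf3, a transcription factor that stress induces within minutes, read 8.45, 8.41 and 8.01 in sham and 8.99, 9.30 and 8.74 in I30, a log2 difference of 0.72 (SE 0.28, adjusted p = 0.634). The lower gene was Mafk at -0.27. Fos, a subunit of the AP-1 factor, read 7.93, 8.19 and 7.21 in sham and 7.81, 7.85 and 7.26 in I30, and Egr1 differed by 0.07 with a 95% interval of -0.17 to 0.31. The Fos difference was -0.14, and -0.42 without sham replicate 3.

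These values depended on sham replicate 3, which held the lowest sham value for 31 of the 41 genes and lay more than 0.5 below both other sham arrays for 12. Without it the list median was -0.05, with 1 higher and 2 lower genes, Gadd45g came to 0.57, Atf3 to 0.58 and Gadd45b to 0.22. Ptgs2, the inducible cyclooxygenase, read 5.62 in that array and between 7.0 and 7.62 in the other 5, and its difference of 0.33 became -0.32. Thbs1, the matrix glycoprotein thrombospondin, read 8.71 there and between 10.78 and 10.99 elsewhere, and its difference of 0.78 became 0.06. In wildtype hearts Atf3 rose by 1.80 on the log2 scale (adjusted p = 0.00556) and Jun by 0.99 (adjusted p = 0.00987), and the tests of the difference between genotypes gave adjusted p-values of 0.561 and 0.461. After 60 min of reperfusion, set against the same Per2-/- sham arrays, 29 of the 41 genes rose at an adjusted p under 0.05, a call made for 2.78% of all genes, among them Atf3 by 3.36, Fos by 2.11 and Gadd45g by 2.50. After IP0 10 of the 41 rose, against 0.117% of all genes. The sham mean of both comparisons includes the low sham replicate 3, and their values without it are not given.

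**Figure D3:**
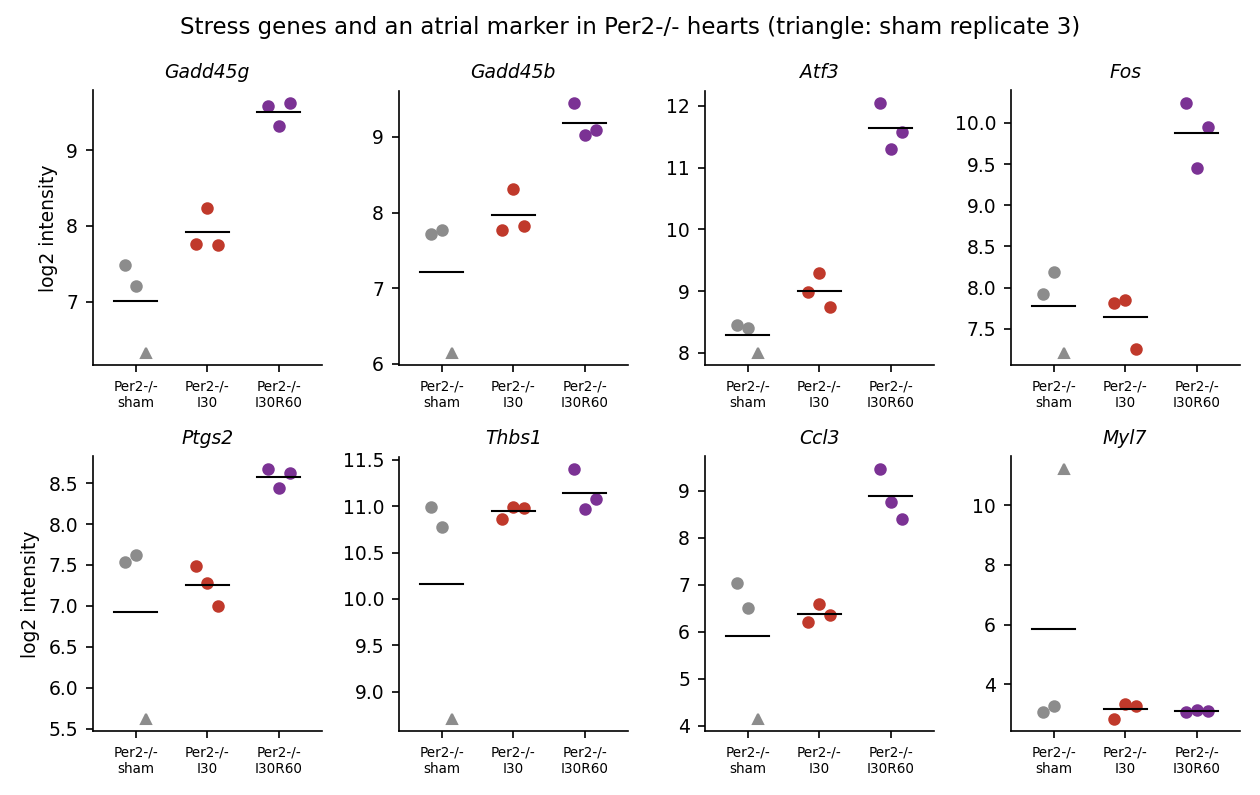
Log2 intensity of stress and inflammatory genes and of the atrial marker Myl7 by array in Per2-/- sham, I30 and I30R60 hearts (points, 3 arrays a group; lines, group means; triangle, sham replicate 3; each panel has its own axis). The triangle is the lowest sham point of every gene except Myl7, where it is the highest at 11.21, and the I30 points of Atf3, 8.74 to 9.30, lie above the sham points.

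Genes of fuel use were nearly level between I30 and sham in Per2-/- hearts. Of 33 measured enzymes of fatty acid oxidation, none was higher or lower at an unadjusted p under 0.05, the median was -0.04, and every 95% interval lay within 2-fold. Of 22 targets and regulators of PPAR-alpha, the nuclear receptor that switches on fat burning, none passed that threshold either, and the median was -0.03. Wildtype hearts had medians of -0.11 and -0.18 for these lists, with 2 and 4 genes that fell at an adjusted p under 0.05, a call made for 1.18% of all genes. Of 33 genes of lipid droplets, triglyceride synthesis and lipolysis 1 was lower, the phosphatidate phosphatase gene Lpin2 at -0.37. Without sham replicate 3, 2 enzymes, 1 PPAR-alpha gene and 3 lipid droplet genes were lower at an unadjusted p under 0.05 in Per2-/- hearts.

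Ehhadh, an enzyme of peroxisomal fatty acid oxidation, read 6.51, 6.65 and 6.29 in Per2-/- sham and 6.08, 6.53 and 6.08 in Per2-/- I30, overlapping groups with a log2 difference of -0.25 (95% interval -0.67 to 0.17). The wildtype values were 7.45, 7.81 and 7.33 in sham and 5.96, 6.13 and 5.86 in I30, and Ehhadh fell by 1.54 there (adjusted p = 0.00189). The Per2-/- sham hearts already lay 1.05 below the wildtype sham hearts (log2 difference -1.05, adjusted p = 0.0221; 0.266% of all genes were called in that comparison). The test of the difference between genotypes gave 1.29 (SE 0.28, adjusted p = 0.371). Ucp3, a mitochondrial uncoupling protein, read 7.65, 7.55 and 8.28 in Per2-/- sham and 7.23, 8.43 and 7.66 in Per2-/- I30, a difference of -0.05, and fell by 1.65 in wildtype (adjusted p = 0.0207). The sign of the Per2-/- value for Ucp3 turned with several single arrays, to 0.22 without I30 replicate 1 and 0.18 without sham replicate 3. Cpt1a, which brings fatty acids into mitochondria, differed by -0.19 in Per2-/- hearts (-0.09 without sham replicate 3) and fell by 0.65 in wildtype (adjusted p = 0.00862).

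Glycolytic and hypoxia genes were level as well. Of 44 measured targets of HIF and genes of glucose entry and glycolysis, none was higher and 2 were lower, the glycolytic enzyme Pgam1 at -0.31 and the vasodilator peptide gene Adm at -0.35. There were 5 lower without sham replicate 3. Hif1a differed by 0.09 (95% interval -0.14 to 0.32), Vegfa by 0.01 (95% interval -0.24 to 0.25) and the insulin-responsive glucose transporter Slc2a4 by -0.02 (95% interval -0.17 to 0.13). None of 26 measured glycogen genes was higher or lower. Ppp1r3c, which targets a phosphatase to glycogen and promotes its storage, read 9.23, 9.44 and 8.69 in Per2-/- sham and 9.13, 8.86 and 9.01 in Per2-/- I30, a log2 difference of -0.12, and -0.33 without sham replicate 3. In wildtype hearts Ppp1r3c rose by 1.25 (adjusted p = 0.00206), and the difference between genotypes was -1.37 (SE 0.24, adjusted p = 0.110). Without sham replicate 3 that difference was -1.59 and passed the adjusted test (adjusted p = 0.0168).

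**Figure D4:**
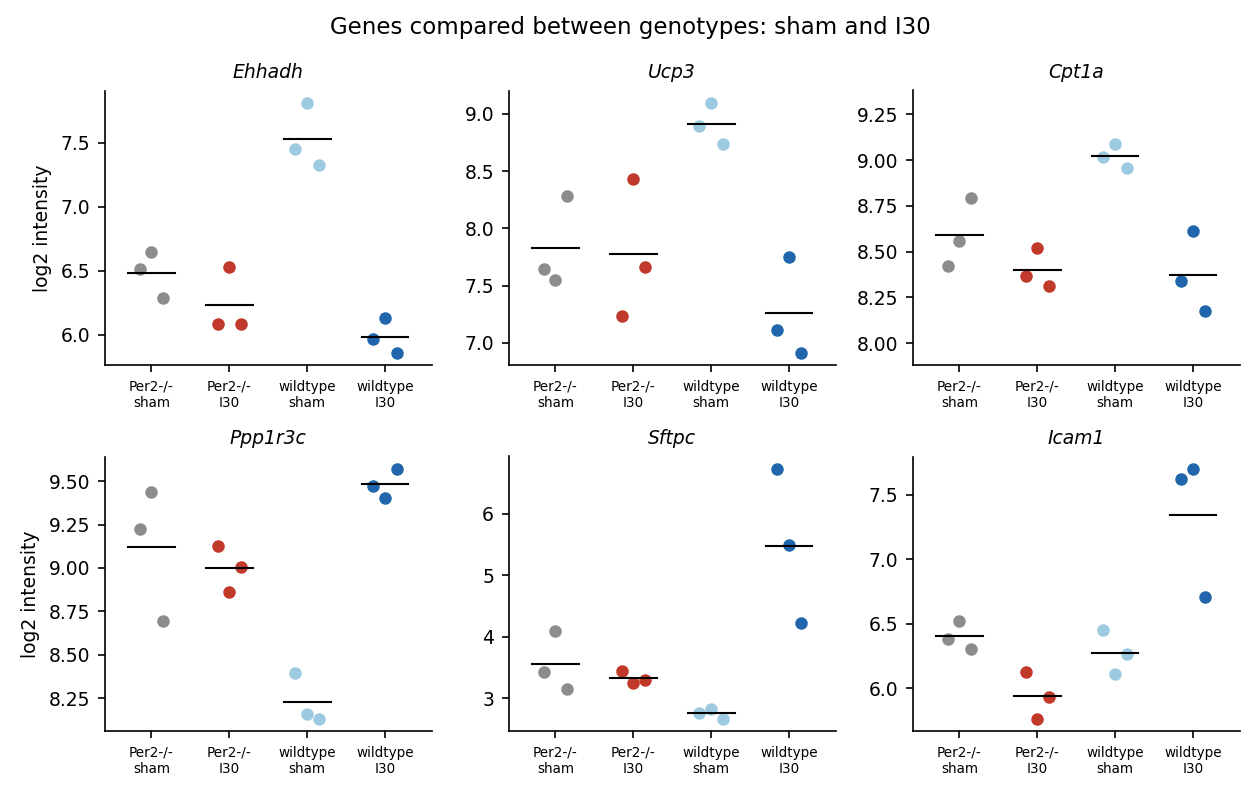
Log2 intensity by array of genes compared between genotypes, in sham and I30 hearts (points, 3 arrays a group; bars, group means; each panel has its own axis). The Per2-/- sham and I30 points of Ehhadh, Ucp3, Cpt1a, Ppp1r3c and Sftpc overlap, and the wildtype sham and I30 points are apart.

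Mitochondrial and contractile genes were even. Among 72 subunits of oxidative phosphorylation 3 were lower and none higher, all 95% intervals lay within 2-fold, and the largest of the 3 differences was that of Uqcr11, a subunit of complex III, at -0.22. None of 31 sarcomere and calcium handling genes, 28 ion channel genes and 25 genes of branched-chain amino acid degradation was higher or lower. Without sham replicate 3, 4 channel genes were higher. Of 19 ventricular stress genes 1 was higher, the growth inhibitor Mstn at 0.40. Nppb, the brain natriuretic peptide, differed by 0.24 (95% interval -0.15 to 0.64). Nppa, which atria also make in quantity, read 9.70, 9.96 and 12.97 in sham and 9.34 to 9.85 in I30, a difference of -1.23 that became -0.18 without sham replicate 3.

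The remaining clock genes showed no member at an unadjusted p under 0.05 among 14 core genes and 9 output factors, with medians of -0.06 and -0.07. The medians without sham replicate 3 were -0.09 and -0.15, and that of the output factors ran from -0.22 to -0.10 when each array was left out in turn. Ciart, a clock repressor, read 5.44, 6.24 and 5.71 in sham and 5.06, 5.09 and 5.22 in I30, non-overlapping groups with a log2 difference of -0.67 (SE 0.35, unadjusted p = 0.0663). Arntl, which codes for the activator BMAL1, differed by 0.49 with a low sham replicate 3 at 5.25, and by 0.13 without it, and Cry2 differed by -0.30. Since all hearts came from the same clock time, these are levels at a fixed phase.

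Stress and antioxidant genes had few members apart. Of 30 heat shock genes 2 were lower, Hspb8 at -0.25 and Hspa2 at -0.36. Of 32 genes of the integrated stress and unfolded protein responses 2 were lower, Cth at -0.43 and Asns at -0.45, enzymes of cysteine and asparagine synthesis, and without sham replicate 3 there were 5 lower. Among 28 antioxidant genes 4 were lower and none higher: Srxn1, which repairs oxidized peroxiredoxins, Nfe2l2, which codes for the activator NRF2, Ftl1 and Txn1, at -0.33, -0.30, -0.25 and -0.14. Of 23 growth arrest and DNA damage genes 2 were higher, both of them Gadd45 genes, and 1 was lower, Phlda3 at -0.33. Srxn1 read 7.06, 6.91 and 6.64 in sham and 6.53, 6.42 and 6.66 in I30, groups that just overlapped, and fell by 0.98 in wildtype (adjusted p = 0.00206). Hmox1, the inducible heme oxygenase, differed by -0.10 (95% interval -0.84 to 0.64), or -0.39 without sham replicate 3, and rose by 2.21 after I30R60 (adjusted p = 0.000645).

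Inflammatory genes differed little at the end of ischemia. Of 50 measured cytokines, chemokines and their receptors 1 was lower, the interleukin receptor Il6ra at -0.33, and none was higher, with a median of 0.04. There were 3 lower without sham replicate 3, at a median of -0.05. After I30R60, 29 of the 50 rose against the same sham arrays, replicate 3 included, at an adjusted p under 0.05, a call made for 2.78% of all genes. Il6 read 4.56, 4.27 and 2.28 in sham and 4.13, 4.02 and 3.67 in I30, a difference of 0.24 with a 95% interval of -0.75 to 1.22, and rose by 4.03 after I30R60. Il1b and Ccl3 differed by 0.21 and 0.48, and by -0.27 and -0.39 without sham replicate 3, where Il6 came to -0.47. Icam1, an adhesion molecule that holds leukocytes on endothelium, read 6.38, 6.52 and 6.31 in sham and 6.13, 5.76 and 5.93 in I30, a log2 difference of -0.46 (adjusted p = 0.769). The wildtype difference of Icam1 was 1.07 (adjusted p = 0.0552), and the difference between genotypes was -1.53 (SE 0.41, adjusted p = 0.391). Of 34 genes of NF-kB signalling and innate sensing 2 were lower, and the larger was the sensor Tlr2 with 5.50, 5.35 and 5.42 in sham and 5.00, 4.66 and 5.04 in I30, a log2 difference of -0.52. Of 31 ADAMTS proteases, matricellular and coagulation genes 1 was lower, the gelatinase gene Mmp2 at -0.26, and 3 were without sham replicate 3. None of 14 adhesion molecules, 24 glucocorticoid response genes and 22 prostaglandin and adenosine genes was higher or lower. The median of the glucocorticoid list moved from -0.06 to -0.24 without sham replicate 3, where 1 was higher and 2 were lower.

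Interferon response and macrophage genes lay below 0 with few exceptions. Of 29 interferon response genes 26 were negative, as were 10184 of all 18820 genes. The list median was -0.20, and 2 of the 29 (6.90%, against 4.09% of all genes) were lower at an unadjusted p under 0.05. Ifit3, an antiviral effector, read 7.18, 7.14 and 7.36 in sham and 6.64, 6.52 and 6.93 in I30, a log2 difference of -0.53, and Stat2, which carries the interferon signal, differed by -0.38. The list median against the sham mean was -0.25 and -0.43 in I30 replicates 1 and 2 and 0.01 in replicate 3, so the shift was not shared by all 3 hearts. All 16 macrophage markers were negative at a median of -0.23, with Cd68 at -0.40 (SE 0.14, unadjusted p = 0.00781) and C1qb, of the complement system, at -0.29 (SE 0.10, unadjusted p = 0.00857). Their summed log2 level was 11.55 to 11.69 in sham and 11.41 to 11.50 in I30. In wildtype hearts it was 11.59 to 11.86 in sham and 11.54 to 11.98 in I30. The wildtype median difference of the markers was 0.05, and against the sham mean it was 0.24, 0.04 and -0.20 in the wildtype I30 arrays.

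Markers of other cell types were read to see what else the tissue held. T and B lymphocyte markers, 12 measured, had a median of 0.25, with Cd79b and Cd3e higher, and summed levels of 6.86 to 7.0 in sham and 7.18 to 7.24 in I30. The lymphocyte genes were dim, with Cd3e, a T-cell receptor subunit, at 3.15 to 3.34 in sham and 3.41 to 3.72 in I30. Of the 4 measured red cell markers Alas2 alone was higher at that threshold. Their summed levels were 7.46 to 8.74 in sham, highest in sham replicate 3, and 7.96 to 8.58 in I30. In wildtype hearts 3 of the 4 were higher at that threshold, with a median of 0.75 against 0.24 in Per2-/- hearts. Neutrophil markers had a median of 0.21 (0.07 without sham replicate 3) with none past the threshold, and S100a8, a granule protein gene, ran from 3.31 to 3.87 in sham and 3.65 to 4.19 in I30. Fibroblast and smooth muscle markers were negative in 16 of 17, against 10184 of all 18820 genes, with a median of -0.17 (-0.07 without sham replicate 3). Tcf21, a transcription factor of cardiac fibroblasts, read 5.82, 5.44 and 6.20 in sham and 5.55, 4.83 and 5.03 in I30, a difference of -0.68, and the collagen gene Col3a1 was highest in sham replicate 3 at 6.96. Lung epithelium markers had a median of -0.05, against 0.30 in wildtype. There 5 of the 20 rose at an adjusted p under 0.05, a call made for 1.2% of all genes. Sftpc, a surfactant protein of the lung, read 3.15 to 4.09 in Per2-/- sham and 3.24 to 3.44 in Per2-/- I30, and 6.72, 5.49 and 4.22 in wildtype I30 against 2.67 to 2.82 in wildtype sham. Of 14 endothelial, 12 fat cell and 9 nerve and glia markers none was higher or lower, with medians of -0.02, -0.07 and -0.04. The part of these cell types in the differences above was not tested.

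**Figure D5:**
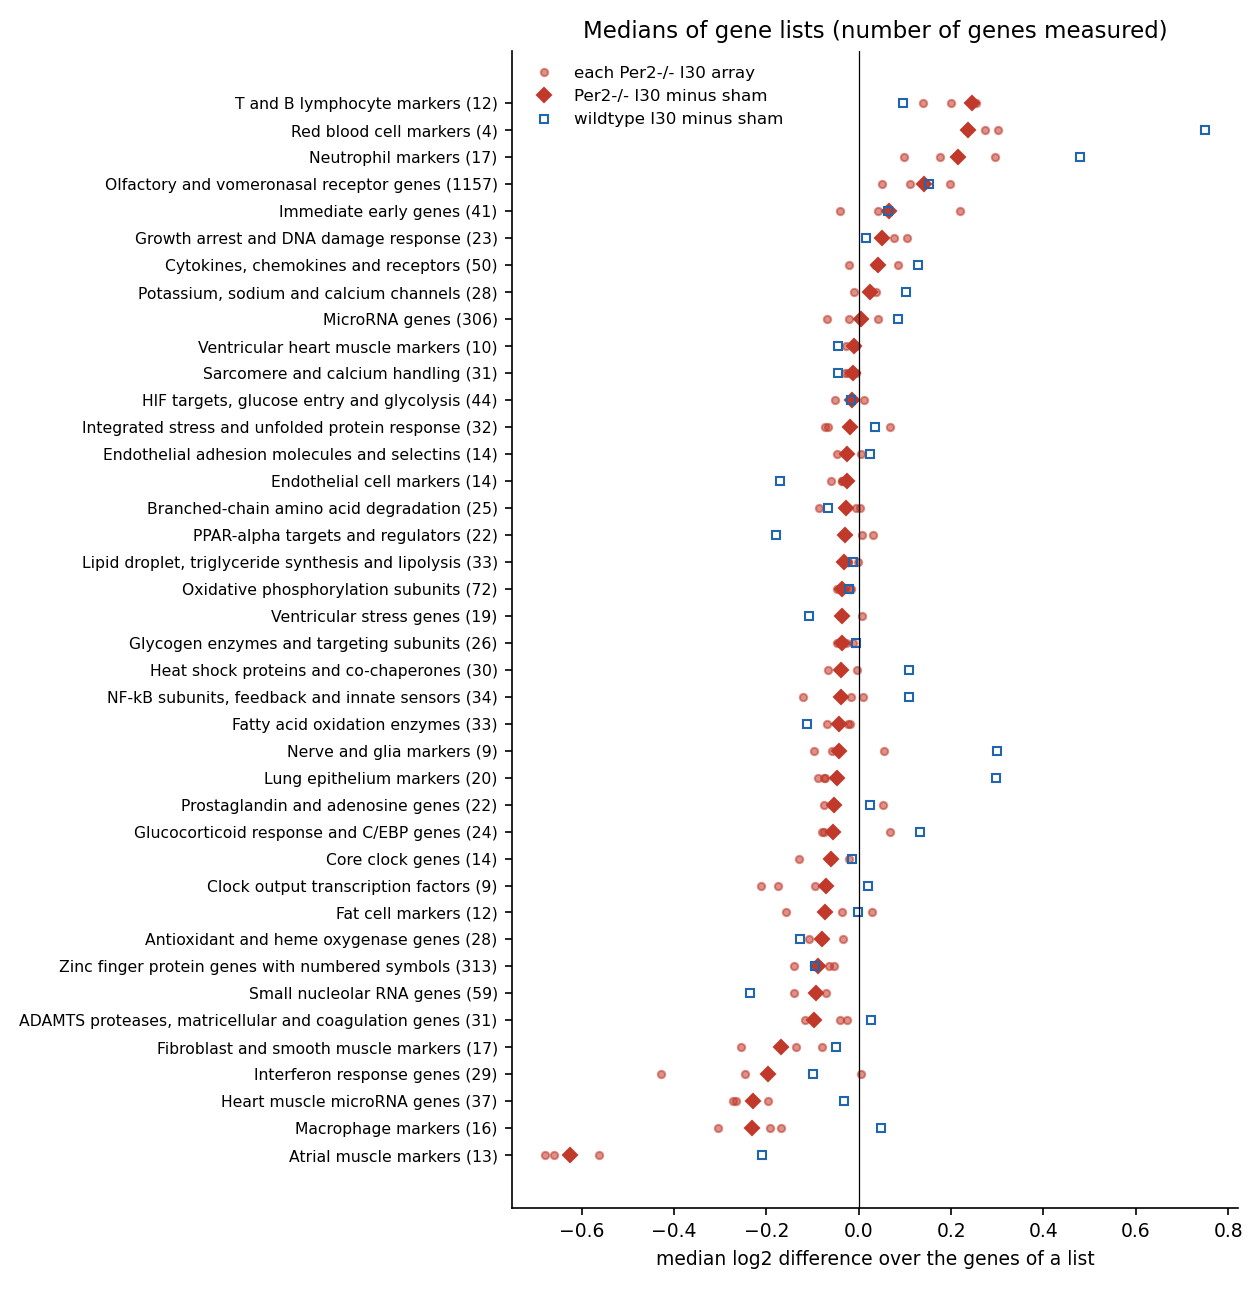
Median log2 difference, I30 minus sham, over the members of each gene list (horizontal axis), in Per2-/- hearts (diamonds), in wildtype hearts (open squares) and for each Per2-/- I30 array against the sham mean (small points). In Per2-/- hearts the heart muscle microRNA genes and macrophage markers lie at -0.23 and the interferon response genes at -0.20, while the atrial list at -0.63 comes to -0.03 without sham replicate 3.

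The higher genes were mostly dim. When genes were split into terciles by their mean over the 24 arrays, the lowest, with means of 1.27 to 3.39, held 455 of the 574 higher genes and 52 of the 769 lower, and the highest held 28 and 343. The olfactory and vomeronasal receptor genes, which sense odors and pheromones, made up 115 of the 574 higher genes, with a median difference of 0.14 over 1157 genes and 0.15 in wildtype. This went with the narrower spread of the I30 arrays, 3.76 to 3.87 in wildtype I30 and 3.95 to 4.11 in the 18 arrays outside the I30 groups, while whether that spread sets the difference of dim genes was not tested. After quantile normalization, which gives all arrays the same distribution, the lowest tercile held 256 higher and 99 lower genes and the highest 88 and 178.

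The wildtype hearts share no array with this comparison. There 449 genes were called (2.39%), 226 of them up (1.2%) and 223 down (1.18%). Of the 574 genes higher in Per2-/- hearts 494 (86.1%) were also above 0 in wildtype, as were 52.1% of all genes, and of the 769 lower genes 604 (78.5%) were below 0, as were 47.9% of all. Part of this went with level, since in the lowest tercile 91.6% of the higher genes and 83.5% of all genes were above 0. In the middle tercile the values were 68.1% and 41.3%, and for lower genes of the highest tercile 85.7% and 68.3%. After quantile normalization the shares were 67.0% of 466 higher genes, against 51.7% of all, and 65.0% of 535 lower genes, against 48.3%. Of the higher genes 30 rose in wildtype, 5.23% of that list and 13.3% of the wildtype calls, and of the lower genes 37 fell, 4.81% and 16.6%.

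No gene passed the test of the difference between genotypes (0% called, smallest adjusted p 0.0779 in limma), and 1336 genes (7.1%) had an unadjusted p under 0.05. For 547 of these the difference of I30 minus sham was the more positive in Per2-/- hearts. That 449 genes were called in wildtype and 0 in Per2-/- hearts does not by itself show that the genotypes responded differently. Differences between genotypes were ranked among genes with an unadjusted p under 0.05 and non-overlapping I30 and sham arrays in at least 1 genotype. Predicted, olfactory and vomeronasal genes were left out. The 5 largest negative ones in that set were those of the lung genes Sftpc at -2.95 (SE 0.51, adjusted p = 0.109) and Scgb1a1 at -2.89 (SE 0.67, adjusted p = 0.371), the acute phase protease inhibitor gene Serpina3n at -1.56 (adjusted p = 0.480), the endothelial selectin gene Selp at -1.54 (adjusted p = 0.660) and Icam1. Sftpc passed the adjusted test with array weights (adjusted p = 0.033), without wildtype I30 replicate 1 (-2.33, adjusted p = 0.042) and without wildtype I30 replicate 3 (-3.58, adjusted p = 4.98e-05). Without that last array Scgb1a1 (-3.49, adjusted p = 0.046) and Serpina3n (-2.22, adjusted p = 0.00249) passed too, as did Cyp2f2, Mob3a and 4933409K07Rik. Selp differed by 0.39 in Per2-/- hearts, or 0.68 without sham replicate 3, and rose by 1.93 in wildtype (adjusted p = 0.0333). The 5 largest positive differences between genotypes in the same set were those of Thbs1 at 1.94, Prnd, a relative of the prion gene, at 1.64, Pate11 at 1.61, Ucp3 at 1.60 and the water channel gene Aqp8 at 1.38, with adjusted p-values of 0.391 to 0.561. For Fos the Per2-/- difference was -0.14, the wildtype difference 1.29 and the difference between genotypes -1.43 (adjusted p = 0.558). When the 4 arrays of high Myl7 were dropped, 2 of them wildtype sham arrays and all picked with the values in view, the difference between genotypes for Fos was -2.86 and passed (adjusted p = 0.0118). Compared directly after I30, Per2-/- and wildtype hearts differed in 125 genes at an adjusted p under 0.05 (0.664%), and after sham in 50.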

How the data were processed

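Total RNA of heart left ventricle from 24 mice was hybridized to Affymetrix Mouse Gene ST arrays, 1 mouse per array and 3 arrays in each of 8 groups. The authors imported the CEL files into Partek and normalized them by Robust Multichip Averaging (RMA), and the deposited values are log2 intensities per probe set. RMA puts the probe intensities of all arrays on a common distribution and summarises the probes of a set. Differences of dim genes tend to be compressed in such values. The array version is given differently by the sources, and its annotation paired 21218 of 35555 probe sets with 1 symbol, 18820 genes in all, of which 18790 matched RefSeq.

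A group-mean model was fitted to all 24 arrays (limma 3.58.1, R 4.3.3, 16 residual degrees of freedom), with Benjamini-Hochberg adjustment over all genes, and was tested on simulated data. The number of arrays limits the precision. The genes named were chosen from Per2, the 10 largest differences in each direction with non-overlapping groups and an unadjusted p under 0.05, the 3 smallest p-values in each direction, the largest interactions and up to 5 members of each list by p, leaving out predicted, olfactory and vomeronasal genes. Members of printed microRNA families, their host genes, members of lists with a known role and genes set beside wildtype were added after their values were seen. The gene lists and the comparison were chosen with earlier results of these data known. Alternatives varied the arrays fitted, variance moderation, scaling, level filter, probe set, replicate block and arrays left out. Figures used matplotlib 3.10.9.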

Additional observations from a re-analysis of the deposited data

How the results depend on the processing

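Calls in the Per2-/- comparison of I30 with sham stayed at 0 except on the 12 sham and I30 arrays (1, Mir30e) and when arrays were left out (0 to 2): without I30 replicate 1 Olfr299 and Snora44 passed, and without I30 replicate 3 Mir24-1 and Olfr1109. The count of genes lower at an unadjusted p under 0.05 was 495 with each array centred on its median and 423 to 890 with arrays left out, the lowest without I30 replicate 2, and the count of higher genes was 68 among genes above the median level. The split of higher against lower genes was 758 to 495 after centring and 466 to 535 after quantile normalization, against 574 to 769. Calls of the difference between genotypes numbered 1 with the trend and robust options, after quantile normalization or above the median level, and 3 with array weights. With arrays left out they were 0 to 6, with 6 without wildtype I30 replicate 3 and 1 each without Per2-/- sham replicate 1, sham replicate 3 and wildtype I30 replicate 1. Leaving out the 4 arrays of high Myl7 (Per2-/- sham replicate 3, Per2-/- IP0 replicate 3 and wildtype sham replicates 1 and 2), or Per2-/- sham replicate 3 with I30 replicate 1, both chosen after seeing the data, gave 1 each, Fos in the former and Ppp1r3c in the latter. The causes were not tested.

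The sign of several differences between Per2-/- I30 and sham that were close to 0 or rested on sham replicate 3 turned. With arrays left out the values ran from -0.51 to 0.07 for Fos, -0.43 to 0.68 for Ptgs2, -0.39 to 1.05 for Ccl3, -0.47 to 0.50 for Il1b, -0.57 to 0.66 for Il6, -0.38 to 0.45 for Ucp3, -0.40 to 0.0396 for Ppp1r3c, -0.48 to 0.044 for Sftpc and -4.09 to 0.12 for Myl7. For Egfl7 they ran from -0.21 to 0.0114, for Egr1 from -0.0609 to 0.18, for Hif1a from -0.016 to 0.17, for Vegfa from -0.0559 to 0.0783, for Slc2a4 from -0.0705 to 0.0199, for Hmox1 from -0.39 to 0.087, for Scgb1a1 from -0.64 to 0.48, for Prnd from -0.13 to 0.48 and for Aqp8 from -0.61 to 0.047. Without the 4 arrays of high Myl7 the values were -0.32 for Ptgs2, -0.39 for Ccl3, -0.27 for Il1b, -0.47 for Il6, 0.18 for Ucp3, -0.0289 for Egr1, -0.0553 for Vegfa and -0.0969 for Scgb1a1. Without sham replicate 3 and I30 replicate 1 they were -0.43, -0.31, -0.47, -0.57, 0.45, -0.0609, -0.0559 and -0.64 in the same order, and 0.12 for Myl7. Array weights turned Ucp3 to 0.0534, Vegfa to -0.0137 and Il6 to -0.0296, and centring turned Slc2a4 to 0.0034.

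The replicate numbers did not pair the arrays. Deviations from the group means of same-numbered arrays had a mean correlation of 0.02, and -0.04, -0.00 and -0.07 for the 3 pairs of Per2-/- sham and I30. With the replicate block as a random term 0 genes were called, with 567 higher and 751 lower at an unadjusted p under 0.05, and as a fixed term 0, with 606 and 781. Signal over background is not given for these values, so dim genes, among them most of the higher genes, have no stated detection limit.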

Other observations

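Outside the 18820 named genes, 14337 probe sets had several symbols or none. In the Per2-/- comparison of I30 with sham limma called 0 of them at an adjusted p under 0.05, with a smallest adjusted p of 0.589, and at an unadjusted p under 0.05 there were 426 higher and 465 lower.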
